A study of Sus scrofa with 48 samples.

Results

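The livers richest and poorest in T and NK cell transcripts were compared across the liver transcriptome of 48 growing pigs. T and NK marker rich livers were the 16 arrays with the highest marker score, poor livers were the 16 with the lowest, and the 16 intermediate arrays entered neither class. The score was the mean z-score, over the 48 arrays, of 8 lymphocyte transcripts (CD2, CD3D, CD3E, CD3G, CD8A, CCL5, GZMA and NKG7), so the classes were chosen by measured values of these livers and not by any label. The pigs were Large White barrows from lines selected during 8 generations for a low or a high residual feed intake (RFI), the difference between the feed an animal eats and the feed predicted from its growth and backfat. From 74 days of age, each line was fed freely either a high-fat high-fiber (HF) or a low-fat low-fiber (LF) diet, with 12 pigs for each line and diet. Liver was taken at slaughter, at an age recorded as the same for all 48 pigs. For each pig, 1 array was hybridised with Cy3-labelled cRNA on a porcine oligonucleotide microarray. All pigs were castrated males of the same breed and were sampled after a meal, so that no female, boar or fasted animal was included.

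Liver houses many lymphocytes in its sinusoids and portal tracts, among them cytotoxic CD8 T cells, NK cells and innate-like T cells. CD3D, CD3E and CD3G are the invariant chains that carry the signal of the T cell receptor, CD2 is an adhesion receptor shared by T and NK cells, and CD8A is a chain of the coreceptor of cytotoxic T cells. GZMA and NKG7 belong to cytotoxic granules, and CCL5 is a chemokine released by activated T and NK cells. Hepatocyte genes dominated all arrays: the 15 hepatocyte markers tested were well above background on all 48 arrays, and ALB (albumin) exceeded 99.998% of tested probes. In such bulk tissue, fewer cells of a type and less RNA per cell cannot be told apart.

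The score ran from 1.58 in the richest liver to -2.02 in the poorest, without a gap between classes. It averaged 0.79 ± 0.39 (SD, n = 16) in rich livers and -0.85 ± 0.53 (SD, n = 16) in poor ones. The last rich liver scored 0.41 and the next array, counted as intermediate, scored 0.38. At the lower limit, the scores of the neighbours were -0.2188 (intermediate) and -0.2200 (poor), so membership there rested on a minute difference.

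**Figure D1:**
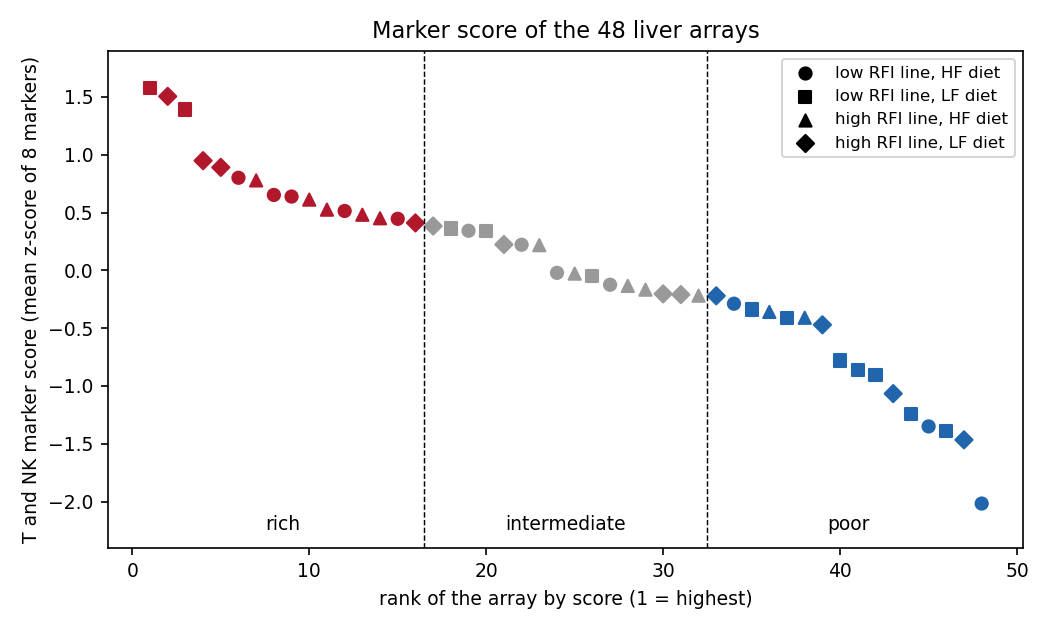
Marker score (mean z-score of 8 markers, no unit) of each of the 48 liver arrays against its rank. Colours mark rich (red), intermediate (grey) and poor (blue) livers, symbols mark line and diet, and dashed lines the limits of the classes; the score falls without a break from 1.58 to -2.02.

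Because the 8 markers chose the classes, their values are a description without a test. Levels are given throughout as log2 intensity minus the median of the array. The CD3G level was between -1.04 and 0.11 (median -0.72) in rich livers and between -2.37 and -0.90 (median -1.77) in poor ones. For CCL5, the level was between 3.93 and 5.10 (median 4.44) in rich livers and between 3.27 and 4.04 (median 3.78) in poor ones, and 15 of the 16 rich livers exceeded the highest poor one. CD3E had the smallest log2 difference of the 8, 0.38, and only 1 rich liver exceeded the highest poor one. GZMA, a granule protease, was well above background on 44 of 48 arrays, whereas the other markers were so on all 48. The other markers separated the classes by log2 differences between 0.51 (NKG7) and 1.04 (CD3G). All 10 further probes for these genes that were not part of the score were also higher on average in rich livers, by log2 differences between 0.29 and 1.12.

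The probes that represent CD2 and CD3G in the score are shown because they read the coding part of these T cell transcripts. Each is 60 bases long.
CD2: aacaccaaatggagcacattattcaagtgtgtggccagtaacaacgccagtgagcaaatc
CD3G: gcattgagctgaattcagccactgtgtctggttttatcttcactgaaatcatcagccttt

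Neither line nor diet separated the scores. The score was 0.10 ± 0.65 (SD, n = 24) in the high RFI line and -0.10 ± 0.89 (SD, n = 24) in the low RFI line, a difference of 0.21 (2-sided permutation test within diet, P = 0.37, P-BH = 0.57). Pigs fed the HF diet scored 0.07 ± 0.66 (SD, n = 24) and pigs fed the LF diet -0.07 ± 0.90 (SD, n = 24), a difference of 0.13 (2-sided permutation test within line, P = 0.57, P-BH = 0.57). Both extremes of the score were found among pigs of the low RFI line: the richest liver came from the LF diet and the poorest from the HF diet. Rich livers came from 9 pigs of the high and 7 of the low RFI line and from 10 pigs fed HF and 6 fed LF. Poor livers came from 6 pigs of the high and 10 of the low RFI line and from 5 pigs fed HF and 11 fed LF. Line and diet were therefore covariates in the comparison.

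Each scan day held 8 rich and 8 poor livers, and each of the 6 slides held between 1 and 4 of each class. Rich arrays were slightly brighter, with a log2 median intensity of 6.32 ± 0.28 (SD, n = 16) against 6.16 ± 0.22 (SD, n = 16) on poor arrays (2-sided permutation test, P = 0.091, P-BH = 0.12). The share of probes well above background was 72.6% ± 2.36 (SD, n = 16) against 71.1% ± 2.79 (SD, n = 16) (2-sided permutation test, P = 0.12, P-BH = 0.12). Of the 61 genes named by the rule of choice, 45 kept their call with slide in the fit, 49 with this share as a covariate and 29 on scan day 1 alone. On scan day 2 alone, 0 of the 61 kept their call and 0 turned in sign.

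Rich livers over-expressed many more genes than they under-expressed. Of 45218 probes tested (limma with line and diet as covariates, P-BH under 0.05), 925 (2.05%) were higher and 101 (0.223%) were lower in rich livers. Taking the brightest probe of each of 10832 named genes, 241 genes (2.22%) were higher and 25 (0.231%) were lower. With the cut-offs of the study's methods (P under 0.01 and FC above 1.1), 1609 probes were higher and 798 lower, together 5.32% of those tested. The median log2 difference over the named genes was -0.03. Of the 241 genes, 63 were in a gene list, 23 of these in the T and NK lists, and 178 were outside all lists. Scan day 1 alone (8 rich against 8 poor livers) gave 294 higher and 47 lower probes, and scan day 2 alone gave 1 higher and 0 lower (limma, 1869 and 1311 at an unadjusted P under 0.05, 7 and 0 by the ANOVA without moderation).

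**Figure D2:**
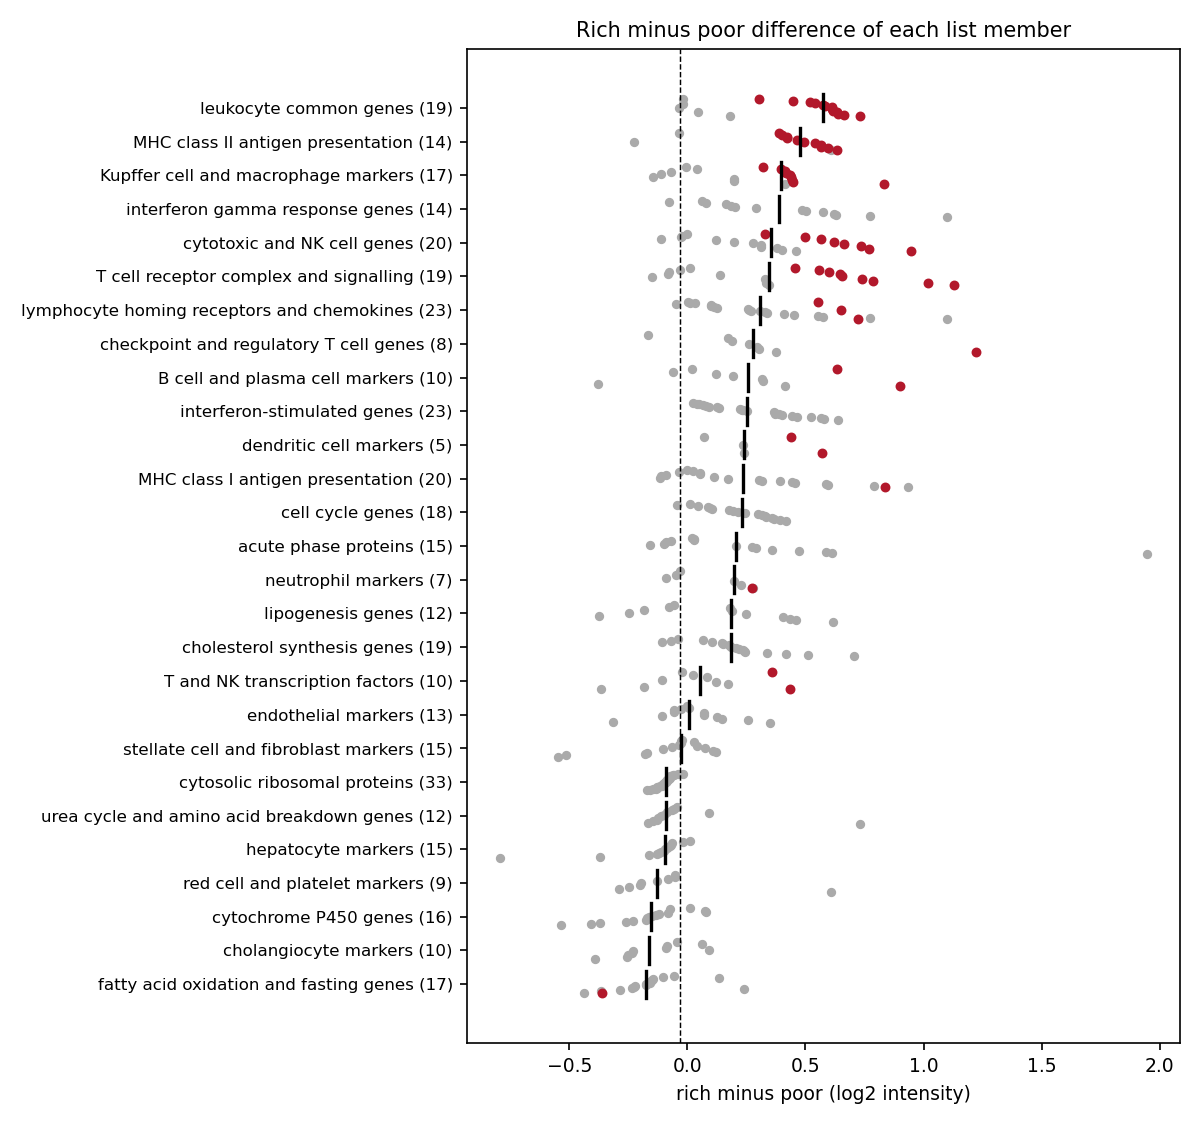
Rich minus poor difference (log2 intensity, x axis) of each tested gene of the 27 gene lists (y axis, number tested in brackets). Red points passed P-BH under 0.05, grey points did not, black bars are list medians and the dashed line is the median of all named genes (-0.03); leukocyte common, MHC class II and macrophage lists lie farthest to the right.

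Some T cell genes that were not part of the score were higher in rich livers. Of 19 tested genes of T cell receptor signalling, 9 were over-expressed in rich livers and none under-expressed, against 2.22% of all named genes called higher, and the median log2 difference of the list was 0.35. The classes were selected on transcripts of T cells, NK cells and leukocytes, so neither this list nor the cytotoxic and leukocyte lists are independent evidence for their own direction. The ICOS level, which reads the inducible costimulator of activated T cells, was between -1.62 and 0.31 (median -0.73) in rich livers and between -2.39 and -1.10 (median -1.86) in poor ones. In 13 of the 16 rich livers it exceeded the highest poor value. The log2 difference was 1.13 ± 0.15 (SE, FC = 2.19, limma P-BH = 4.08e-05).

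The CD8B level, for the partner chain of CD8A, was between -3.74 and -1.73 (median -3.21) in rich livers and between -5.60 and -2.90 (median -3.84) in poor ones (FC = 2.02, limma P-BH = 0.0128). The ranges overlapped, and the probe was well above background on only 8 of the 16 poor arrays. CD27, a costimulatory receptor, was over-expressed with FC = 1.72 (limma P-BH = 0.00927). Adaptors that sit around the receptor were called too: FC was 1.67 for SKAP1, 1.57 for SIT1, 1.56 for TRAT1, 1.51 for SLA2 and 1.47 for SH2D1A (limma P-BH between 0.000141 and 0.0251). Only 1 of the 3 probes of SIT1 was called, whereas all 3 of SLA2 were. FYN, a Src family kinase of T cells, was higher by 0.45 ± 0.07 (SE) on the log2 scale (limma P-BH = 0.000141). CD8B, CD27 and SH2D1A lost their calls after normexp background correction (P-BH of 0.52, 0.26 and 0.34), with log2 differences of 0.15, 0.16 and 0.16.

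Some core T cell genes did not pass the test at their brightest probe. The log2 difference was 0.33 ± 0.14 (SE) for CD4, the coreceptor of helper T cells (limma P-BH = 0.30). For CD247, the zeta chain of the receptor complex, it was 0.35 ± 0.11 (SE, limma P-BH = 0.11), and 1 of its 3 probes was called higher (limma P-BH = 0.0369). LCK, the kinase that starts receptor signalling, showed how the choice of probe matters: its brightest probe differed by -0.15, whereas 2 of its 4 probes were called higher, the largest by 0.84 on the log2 scale (limma P-BH = 2.49e-05). The 5 tested probes for T cell receptor chains themselves did not pass. Their log2 differences were between -0.14 and 0.36, and the smallest P-BH was 0.061 (limma), for a gamma chain constant region probe whose level was between 1.54 and 2.24 (median 1.85) in rich and between 0.55 and 1.94 (median 1.49) in poor livers.

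Among transcription factors of T and NK cells, 2 of 10 tested were higher in rich livers and none was lower, with a list median of 0.05. Over all named genes, 2.22% were called higher. GATA3, known from helper T cells and innate lymphocytes, had FC = 1.35 (limma P-BH = 0.00591). EOMES, which drives cytotoxic programs, had FC = 1.28 (limma P-BH = 0.017). TBX21 differed by -0.18 ± 0.10 (SE, limma P-BH = 0.45) and RUNX3 by -0.37 ± 0.18 (SE, limma P-BH = 0.38) on the log2 scale, so neither passed. PRDM1, a regulator of effector and plasma cells, differed by -0.11 at its brightest probe, whereas 2 of its 4 probes were called higher, the largest by 0.91.

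Some cytotoxic and NK cell genes were higher in rich livers as well. Of 20 tested, 8 were over-expressed and none under-expressed, against 2.22% of all named genes called higher. The list median was 0.35 on the log2 scale. Scan day 1 alone called 3 of the 20. The GZMK level, a granzyme of memory CD8 T cells, was between -0.39 and 0.87 (median -0.10) in rich livers and between -1.62 and -0.05 (median -0.76) in poor ones. Rich and poor ranges overlapped, with 12 poor livers under the lowest rich one. Its FC was 1.93 (log2 difference 0.95 ± 0.17 SE, limma P-BH = 0.000983).

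GZMH, another granzyme, is read by a probe in its coding part.
GZMH: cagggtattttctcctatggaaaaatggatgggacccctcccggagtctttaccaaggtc
Its level was between -0.16 and 1.78 (median 0.45) in rich and between -0.72 and 0.67 (median -0.30) in poor livers (FC = 1.66, limma P-BH = 0.00186). CST7, which inhibits proteases inside cytotoxic cells, gave a cleaner separation: 15 of 16 rich livers exceeded the highest poor one (FC = 1.59, limma P-BH = 6.3e-05). The receptors SLAMF7 (FC = 1.71), KLRK1 (FC = 1.54) and KLRB1 (FC = 1.48) were over-expressed too. So were FCGR3A, a receptor for the constant part of IgG that NK cells share with macrophages (FC = 1.41), and TYROBP, the adaptor DAP12 of several activating receptors (FC = 1.26). The brightest probe of GZMB differed by 0.31 (limma P-BH = 0.40), whereas 1 of its 3 probes was called higher by 1.18 on the log2 scale (limma P-BH = 0.000348). IFNG, the main cytokine of these cells, differed by 0.46 ± 0.23 (SE, limma P-BH = 0.41).

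In the homing list, the integrin chains ITGA4 and ITGAL were higher in rich livers, whereas the chemokines tested did not pass. Among the 23 genes in this list, those over-expressed in rich livers included the integrin chain ITGA4 (FC = 1.57, limma P-BH = 0.000221) and the integrin chain ITGAL (FC = 1.47, limma P-BH = 0.00192). The list median was 0.31 and 22 of the 23 differences were above 0. The CXCL9 level, a chemokine induced by interferon gamma, was between 0.87 and 3.71 (median 2.54) in rich and between 0.36 and 2.59 (median 1.12) in poor livers. Despite a log2 difference of 1.1, it did not pass (SE 0.32, limma P-BH = 0.059), nor did CXCL10 (0.77 ± 0.27 SE, limma P-BH = 0.15).

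LAG3, an inhibitory receptor of activated T cells, was the only called gene among 8 tested checkpoint and regulatory T cell genes. The share called higher over all named genes was 2.22%. The LAG3 level was between -1.81 and 0.81 (median -0.58) in rich and between -2.39 and -1.16 (median -1.78) in poor livers. Rich livers spread more than poor ones, and 11 of them exceeded the highest poor one (FC = 2.33, log2 difference 1.22 ± 0.20 SE, limma P-BH = 0.000471). The other inhibitory receptors PDCD1 (0.19 ± 0.10 SE) and CTLA4 (0.30 ± 0.25 SE) did not pass, and neither did FOXP3 (0.17 ± 0.21 SE), the factor of regulatory T cells.

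**Figure D3:**
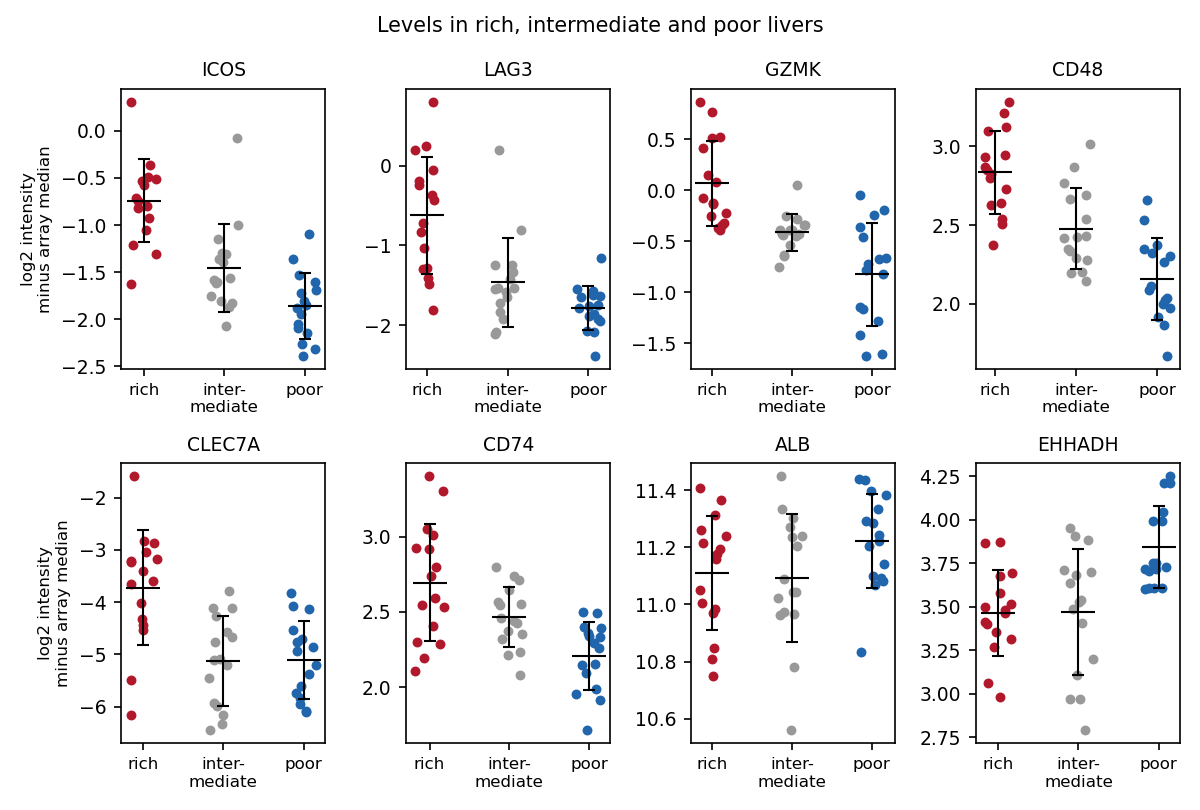
Level (log2 intensity minus array median, y axis) of 8 genes in the 16 rich, 16 intermediate and 16 poor livers; points are livers, bars are mean ± SD, and axes differ between panels. Intermediate livers lie between the classes for ICOS and CD48, whereas ALB overlaps in all classes and the EHHADH mean is highest in poor livers.

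Most genes of the list of common leukocyte genes were higher in rich livers. Of 19 tested, 14 were over-expressed in rich livers and none under-expressed, against 2.22% of all named genes called higher. The list median was a log2 difference of 0.58. Averaged over the list, the level was between 2.17 and 2.63 in rich livers and between 1.71 and 2.11 in poor ones, with no overlap. The RAC2 level, a small GTPase of blood cells, was between 3.69 and 4.39 (median 3.998) in rich and between 2.93 and 3.72 (median 3.49) in poor livers, and 15 of 16 rich livers exceeded the highest poor one (FC = 1.55, limma P-BH = 2.49e-05). CD48, an adhesion partner of CD2 family receptors, had FC = 1.66 (limma P-BH = 2.49e-05). IL2RG, the common chain of several cytokine receptors, and EVI2B had FC = 1.58 and FC = 1.55. For LAPTM5, a lysosomal protein of blood cells, all 16 rich livers exceeded the highest poor one, its log2 difference being 0.61 ± 0.08 (SE, limma P-BH = 2.92e-05). PTPRC (CD45) differed by -0.02 at its brightest probe, whereas 2 of its 3 probes were called higher, the largest by 0.44.

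Several macrophage genes were higher in rich livers, whereas markers of neutrophils, red cells and platelets mostly did not pass. Of 17 Kupffer cell and macrophage markers tested, 9 were over-expressed in rich livers, against 2.22% of all named genes called higher. The list median was a log2 difference of 0.40. The C1QC level, a chain of complement C1q, was between 3.75 and 4.63 (median 4.28) in rich and between 3.15 and 4.24 (median 3.81) in poor livers (FC = 1.36, limma P-BH = 0.011). C1QA and C1QB, its partner chains, were called as well, and so were AIF1, CSF1R and VSIG4. LYZ (lysozyme) had FC = 1.78, MSR1 (a scavenger receptor) FC = 1.35 and CD163 (the scavenger receptor of haemoglobin) FC = 1.36. Only 3 of the 6 probes of CD163 were called, and its call held in 11 of 32 fits that left out 1 liver. Other defining markers of macrophages did not pass: log2 differences were -0.07 ± 0.07 (SE) for CD5L, -0.15 ± 0.07 (SE) for CD14 and 0.04 ± 0.11 (SE) for MRC1. Averaged over the list, the level was between 2.33 and 2.87 in rich and between 1.93 and 2.57 in poor livers. Of the 17, 5 were called with slide in the fit, 5 with the share of probes above background as a covariate and 1 on scan day 1 alone. With slide in the fit, CD163 (P-BH = 0.12) and MSR1 (P-BH = 0.13) were not. The part of macrophages in the other differences was not tested.

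Of 5 dendritic cell markers, CD86, a costimulatory ligand (FC = 1.36, limma P-BH = 0.00135), and CD1D, which presents lipids to NKT cells (FC = 1.48, limma P-BH = 0.0349), were called, and CD1D was not with slide in the fit (P-BH = 0.16) or with the share above background as a covariate (P-BH = 0.063). Of 7 neutrophil markers, CXCR2 alone was called (FC = 1.21, limma P-BH = 0.0409), and it was not with slide (P-BH = 0.080) or that share (P-BH = 0.084) in the fit. Over all named genes, 2.22% were called higher. None of the 9 red cell and platelet markers passed (limma, 1 higher and 1 lower at an unadjusted P under 0.05, none by the ANOVA without moderation), and the 3 haemoglobin probes differed by between -0.16 and 0.10 on the log2 scale.

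Most MHC class II genes, which present antigen to helper T cells, were higher in rich livers. Of 14 tested, 11 were over-expressed in rich livers and none under-expressed, against 2.22% of all named genes called higher. The list median was a log2 difference of 0.48. The CD74 level, the invariant chain of class II molecules, was between 2.11 and 3.40 (median 2.67) in rich and between 1.72 and 2.50 (median 2.28) in poor livers. The upper rich livers stood clear, 11 of 16 exceeding the highest poor one (FC = 1.51, limma P-BH = 0.00118), and all 4 of its probes were called. The probes named HLA-DRA (FC = 1.55), SLA-DRA (FC = 1.48) and SLA-DRB1 (FC = 1.48) read closely related porcine genes that may share signal. With slide in the fit, 5 of the 14 were called, and SLA-DRB1 was not (P-BH = 0.092). The count was 7 with the share above background as a covariate, 1 on scan day 1 alone, 5 without the rich liver ranked 3 and 6 without the one ranked 1.

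The 20 tested genes of MHC class I presentation had a median log2 difference of 0.24, and 15 of the differences were above 0. For SLA-6, a non-classical class I gene outside the lists, a difference was called, 15 of 16 rich livers exceeding the highest poor one (FC = 1.75, limma P-BH = 0.000146).

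The largest difference of any called probe was that of an IgG heavy chain probe. Among genes with a symbol, the J chain gene IGJ, which links antibody units in plasma cells, had a level between 0.39 and 2.18 (median 1.46) in rich and between -0.13 and 1.18 (median 0.51) in poor livers (FC = 1.87, limma P-BH = 0.000539). CD38, found on plasma cells and on activated lymphocytes, had FC = 1.55 (limma P-BH = 0.000646). These were the only called genes among 10 B cell and plasma cell markers, against 2.22% of all named genes called higher. The list median was 0.26. MS4A1 (CD20), the marker of mature B cells, differed by 0.12 ± 0.11 (SE, limma P-BH = 0.70), CD79A by 0.41 ± 0.15 (SE, limma P-BH = 0.18) and PAX5 by -0.38 ± 0.13 (SE, limma P-BH = 0.17) on the log2 scale.

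Antibody chain probes have no symbol in the lists, and were picked out by their descriptions after the files had been seen. All 13 probes for the IgG heavy chain (LOC396781) were called higher in rich livers, against 2.05% of all tested probes. Their FC was between 3.36 and 4.71 (limma P-BH between 0.00126 and 0.00367). Of 10 further probes grouped as heavy chain variable regions, only 4 were called higher. Log2 differences of these 10 were between 0.002 and 1.87 (limma P-BH between 0.00135 and 0.99). The 13 LOC396781 probes are not 13 measurements: 10 of them share at least 20 bases with another of the set. Their sequences show what they read. A pair lies in the conserved framework of the variable region, which heavy chains of every class can carry, and capitals mark the longest run that both share.
heavy chain, variable framework: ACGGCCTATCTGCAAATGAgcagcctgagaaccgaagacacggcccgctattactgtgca
heavy chain, variable framework, shifted: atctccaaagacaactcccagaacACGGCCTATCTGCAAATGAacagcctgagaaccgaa
Other probes lie in parts that set the class apart.
IgG heavy chain, end of the constant region: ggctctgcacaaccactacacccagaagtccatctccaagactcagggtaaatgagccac
Ig gamma 1b, constant region: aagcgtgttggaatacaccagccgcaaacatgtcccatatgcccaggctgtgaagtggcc
IgM mu chain: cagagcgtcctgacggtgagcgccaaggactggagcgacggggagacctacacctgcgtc
IgA alpha chain: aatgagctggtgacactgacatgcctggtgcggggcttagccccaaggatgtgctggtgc

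The level of the IgG constant region probe was between 3.81 and 8.12 (median 6.17) in rich livers, between 3.82 and 6.89 (median 4.83) in intermediate livers and between 2.80 and 5.42 (median 4.29) in poor ones. Rich livers were spread widely, 10 exceeding the highest poor liver while the lowest lay inside the poor range (FC = 4.39, log2 difference 2.13 ± 0.42 SE, limma P-BH = 0.00238). The Ig gamma 1b probe ranged from -1.13 to 4.72 (median 2.36) in rich and from -1.36 to 1.81 (median -0.42) in poor livers (FC = 6.07, log2 difference 2.60 ± 0.58 SE, limma P-BH = 0.00886). The shared variable framework probes gave FC = 3.52 and FC = 3.58.

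Probes for other classes did not pass. The IgM level was between 2.98 and 5.46 (median 4.16) in rich and between 3.39 and 4.57 (median 4.09) in poor livers (log2 difference 0.46 ± 0.20 SE, limma P-BH = 0.33). For IgA, the level of the probe shown was between 1.07 and 4.27 (median 2.103) in rich and between 1.23 and 2.69 (median 1.83) in poor livers (log2 difference 0.31 ± 0.22 SE, limma P-BH = 0.61), and all 3 IgA probes gave differences between 0.29 and 0.31. Whether IgG differed from IgM or IgA in this respect was not tested.

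The probe named IGLL1, a surrogate light chain gene of early B cells, was among the largest rises outside the lists (FC = 2.68, limma P-BH = 0.00477). It shares 22 bases, in capitals, with a probe for the Ig lambda chain, in the joining segment of ordinary light chains.
IGLL1: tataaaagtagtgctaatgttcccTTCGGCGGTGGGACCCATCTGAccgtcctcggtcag
Ig lambda chain: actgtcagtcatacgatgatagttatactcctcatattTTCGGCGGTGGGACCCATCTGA
The IGLL1 level was between 1.11 and 4.75 (median 3.01) in rich and between 1.32 and 2.63 (median 1.77) in poor livers. This lambda probe, 1 of 2 tested, was also called higher in rich livers (FC = 2.58, limma P-BH = 0.00544). Its level was between -1.25 and 2.38 (median 0.67) in rich and between -1.34 and -0.04 (median -0.68) in poor livers. The other lambda probe was not called (limma P-BH = 0.24). It was well above background on 10 rich, 7 intermediate and 1 poor array. Which of these transcripts gave the IGLL1 signal was not tested.

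**Figure D4:**
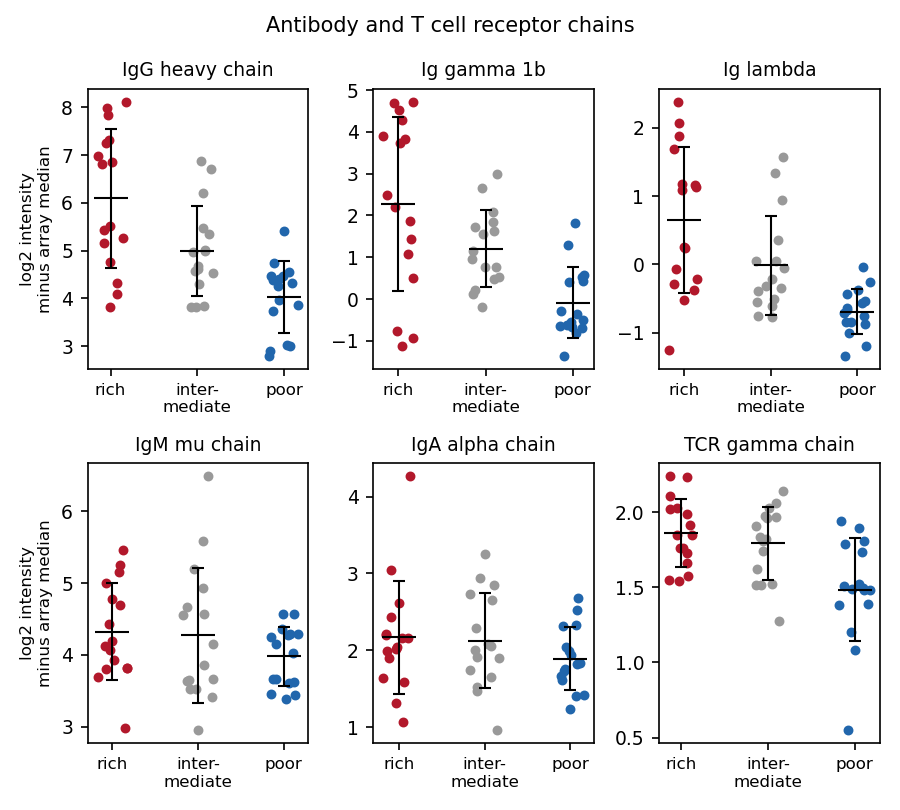
Level (log2 intensity minus array median, y axis) of 6 antibody and T cell receptor chain probes in 16 rich, 16 intermediate and 16 poor livers; points are livers, bars are mean ± SD, and axes differ between panels. IgG, gamma 1b and lambda medians are 6.17, 2.36 and 0.67 in rich against 4.29, -0.42 and -0.68 in poor livers, and the rich and poor ranges overlap in all 6 panels.

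Interferon response genes did not pass the test with line and diet as covariates. Of 14 interferon gamma response genes, 13 had differences above 0 and the list median was 0.39, but none was called (limma, 8 higher at an unadjusted P under 0.05, none by the ANOVA without moderation). GBP2 and PDCD1LG2 differed by 0.63 ± 0.21 (SE) and 0.50 ± 0.15 (SE) on the log2 scale (limma P-BH of 0.13 and 0.064). Other settings did call some of these genes: 1 with slide in the fit, 3 on scan day 1 alone, 5 without the poor liver ranked 39, and 1 or 2 without the rich livers ranked 2, 10, 12 or 13. All 23 interferon-stimulated genes had differences above 0, with a median of 0.25, and none was called (limma, 1 higher at an unadjusted P under 0.05, none by the ANOVA without moderation). The mean level of that list was between 1.89 and 4.74 in rich and between 1.97 and 5.09 in poor livers, so that the highest mean was in a poor liver.

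Of 15 acute phase genes, none was called (limma, 2 higher at an unadjusted P under 0.05, none by the ANOVA without moderation), although HAMP gave the largest difference of any list member. The level of HAMP, the hormone hepcidin that limits iron release, was between 5.07 and 8.49 (median 6.48) in rich and between 0.72 and 7.64 (median 5.06) in poor livers (log2 difference 1.95 ± 0.57 SE, limma P-BH = 0.067). Its wide range among poor livers included values far below any rich liver. CRP (0.47 ± 0.31 SE) and SAA1 (0.61 ± 0.42 SE) did not pass either. None of 18 cell cycle genes was called (limma, 2 higher at an unadjusted P under 0.05, none by the ANOVA without moderation), with a list median of 0.23.

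None of the 15 hepatocyte markers was called (limma, 1 lower at an unadjusted P under 0.05, none by the ANOVA without moderation), and their median log2 difference was -0.09, against -0.03 for all named genes and -0.01 for the same list after quantile normalization. The ALB level was between 10.75 and 11.41 (median 11.17) in rich and between 10.83 and 11.44 (median 11.23) in poor livers. None of 16 cytochrome P450 genes, 33 cytosolic ribosomal proteins, 12 urea cycle and amino acid genes, 19 cholesterol synthesis genes or 12 lipogenesis genes was called (limma, with 0 to 8 of a list past an unadjusted P under 0.05 in a direction, none by the ANOVA without moderation). All 33 ribosomal protein differences were below 0, with a median of -0.09 that was -0.03 after quantile normalization. No cholangiocyte (10 tested), endothelial (13) or stellate cell and fibroblast (15) marker was called (limma, with 0 to 2 past an unadjusted P under 0.05 in a direction, none by the ANOVA without moderation), with list medians of -0.16, 0.01 and -0.03.

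Of 17 genes of fatty acid oxidation and fasting, EHHADH, a peroxisomal enzyme of fatty acid oxidation, was the only called gene. It was under-expressed in rich livers, against 0.231% of all named genes called lower. Its level was between 2.98 and 3.87 (median 3.47) in rich and between 3.60 and 4.25 (median 3.74) in poor livers, and the ranges overlapped (log2 difference -0.36 ± 0.09 SE, FC = 1.28, limma P-BH = 0.0311). It was not called with slide (P-BH = 0.10) or the share above background (P-BH = 0.086) in the fit. Of its 2 probes, 1 was called lower with line and diet alone as covariates. CPT1A, the gate of mitochondrial oxidation, differed by -0.44 ± 0.28 (SE, limma P-BH = 0.55), and the list median was -0.17.

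Outside the lists, CLEC7A, the dectin-1 receptor by which myeloid cells sense fungal glucans, was mainly detected in rich livers, being well above background on 11 rich, 2 intermediate and 1 poor array. Its level was between -6.17 and -1.59 (median -3.50) in rich and between -6.10 and -3.83 (median -5.07) in poor livers. The probe was therefore kept mainly through the class in which it was high, so no fold change or test is given, and after normexp background correction the log2 difference was 0.18. LGALS3 (galectin-3) and GPNMB, both known from lipid-laden and scavenging macrophages, had FC = 1.94 (limma P-BH = 0.0199) and FC = 1.70 (limma P-BH = 0.00558). All 8 probes of LGALS3 and 8 of the 11 of GPNMB were called, but LGALS3 was not with slide in the fit (P-BH = 0.085). The LGALS3 level reached 2.45 in rich livers, while the lowest rich liver, at -1.62, was below every poor one. PARVG, an adaptor of integrins in blood cells, had FC = 1.77 (limma P-BH = 3.53e-05). PMAIP1 (the cell death gene NOXA), VNN2, DEPDC1B and KCNIP1 had FC of 1.93, 1.69, 1.92 and 1.94. PMAIP1, DEPDC1B and KCNIP1 were each called at only 1 of 2 probes. After normexp background correction, PMAIP1, VNN2 and DEPDC1B were no longer called.

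Among called genes outside the lists, the largest fall was that of RALGPS2, an activator of Ral GTPases. Its level was between -0.07 and 1.69 (median 0.28) in rich and between -0.12 and 2.21 (median 0.91) in poor livers (log2 difference -0.60 ± 0.16 SE, limma P-BH = 0.0426). SUSD4, an inhibitor of complement, differed by -0.58, the RNA methyltransferase NSUN6 by -0.50, the small GTPase RAB23 by -0.41, ARMC9 by -0.39 and the corepressor RCOR3 by -0.34 on the log2 scale. The remaining 4 were ZNF326 (-0.37), C10ORF125 (-0.33), KIAA0664 (-0.31) and the DNA repair factor APLF (-0.30), with limma P-BH between 0.00317 and 0.0473. With slide in the fit, 8 of these 10 were not called. ZNF326 kept its call there and in all 32 fits that left out 1 liver. APLF kept its call with slide in the fit but in only 10 of those 32 fits. RALGPS2 kept its call in 10 of the 32, C10ORF125 in 9 and SUSD4 in 17. The others kept theirs in between 24 (ARMC9) and 32. Only 1 of the 5 probes of C10ORF125 was called lower, and 1 of 2 each for RAB23 and APLF.

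No probe passed for the interaction of class with line (limma, smallest P-BH = 0.22, 3097 probes at an unadjusted P under 0.05) or with diet (limma, smallest P-BH = 0.86, 2560 probes), and the fit without moderation called 0 for both. For LAG3, the plain log2 difference of means was 1.597 in the low RFI line (7 rich, 10 poor) and 0.80 in the high RFI line (9 rich, 6 poor). For ICOS, it was 0.67 under the HF diet (10 rich, 5 poor) and 1.46 under the LF diet (6 rich, 11 poor). The LYZ difference was 0.072 under the HF diet and 1.33 under the LF diet. Differences were 1.03 and 0.25 for SLAMF7 and 0.79 and 0.24 for SLA-DRA in the low and high RFI lines. None of these interactions passed (limma P-BH of 0.70 for LAG3, 0.40 for SLAMF7 and 0.68 for SLA-DRA with line, and 0.86 for both ICOS and LYZ with diet), which does not show that lines or diets acted alike.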

How the data were processed

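Scanner files of 48 liver arrays (6 slides, 2 scan days) were used. Per the file headers, the authors' scanning software gave background-subtracted Cy3 intensity for each spot, with 60305 different porcine probes. The authors also deposited log2 values, which equal log2 median signal centred on 0 for 37379 probes. The submitters' processing notes name R 2.10.0. Control spots were dropped, 483 spots marked as outliers were set to missing, intensities were log2-transformed, and probes with signal well above background on 12 or more arrays were kept and centred on the array median (45218 tested, after leaving out 18 probes of the 8 score markers). Symbols came from the files (16698 probes, 199 more updated) or from RefSeq accessions (7062, and 1249 by another accession), and 35098 probes had none. The brightest probe stood for a gene. Models were fitted with limma 3.58.1 in R 4.3.3 (line and diet as covariates, Benjamini-Hochberg adjustment over all tested probes, called P-BH) and checked on simulated data. The simulated noise was independent between probes and its classes were fixed, so the check does not cover classes chosen from the same arrays. Permutation tests used 100000 resamples. P-values measure the spread between pigs. The classes, gene lists and tests were chosen with earlier results of these data known. Named genes were the called members of each list with the largest change (up to 8 for T and NK lists, 4 for others) and the 10 largest rises and falls outside the lists. Genes outside this rule were picked after their values were seen. List genes without a tested probe were not analysed here. Some items are not reported here.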

Additional observations from a re-analysis of the deposited data

How the results depend on the processing

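The excess of genes higher in rich livers was found under every alternative that made over 1 call, whereas the number of lower probes (101) was unstable. It was 65 with centring on the 75th percentile, 67 after normexp correction, 53 without a filter on dim probes, 207 without covariates, 52 with slide as a block and 50 with the share of probes well above background as a covariate. The 4 highest against the 4 lowest livers of each line and diet gave 559 higher and 53 lower probes, and ranking by CD3D, CD3E and CD3G gave 590 and 40. Ranking by GZMA, NKG7 and CCL5 gave 162 lower, the score as a continuous covariate over 48 livers 253 lower, and averaging the probes of each gene 39 lower genes against 25. Scan day 1 alone gave 294 and 47, and scan day 2 alone 1 and 0. The score fitted within the 16 intermediate livers gave 0 and 0 (limma, 941 and 1162 at an unadjusted P under 0.05, 0 and 0 without moderation), with 14 named genes turned in sign, all at P-BH above 0.95: per unit of score, log2 slopes were -0.15 for KLRK1, -0.090 for KLRB1, -0.15 for CD163, -0.26 for MSR1, -0.24 for CD1D, -0.060 for PARVG, 0.62 for RALGPS2, 0.022 for SUSD4, 0.74 for NSUN6, 0.48 for RAB23, 0.13 for RCOR3, 0.35 for C10ORF125, 0.078 for KIAA0664 and 0.27 for APLF. Leaving out each of the 32 livers in turn, an alternative chosen after seeing the data, gave 681 to 989 higher and 49 to 166 lower probes, and 42 of the 61 named genes kept their calls in all 32 fits. Lower probes numbered 49, 64 and 67 without the livers ranked 3, 47 and 41, and 165, 166 and 163 without those ranked 15, 36 and 44. The cause of these changes was not tested. Score differences by line and diet and the interaction counts kept their side of the threshold. No paired analysis was possible because no replicate number in the labels is shared between the groups. Faint probes such as CLEC7A are limited by their closeness to background.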
